A study of Mus musculus with 12 samples.

Results

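The early transcriptional response of control neural stem cells to transforming growth factor beta (TGFb) was measured on 6 of the series' 12 arrays. They are the 3 arrays of control cells treated with TGFb and the 3 arrays of control cells treated with vehicle, chosen by their titles, and all gene probes on them were used. The cells were cultured neural stem cells from the cerebral cortex of mouse embryos (E12.5). They were stably transfected with an shRNA of random sequence, so vehicle and TGFb cells both carry that construct. TGFb was given at 5 ng/ml for 2.5 h. The labels do not give the mouse strain or say whether the line is a clone. A further 6 arrays came from cells with an shRNA against JMJD3, the protein of Kdm6b, under the same treatments, and serve 2 purposes: the comparison of the lines, and a fit over all 12 arrays in which they share in the probe filter and in the estimate of spread behind every SE and p-value. With only the 6 control arrays in the fit, 1689 genes were called in place of 2451. The labels do not say that replicates were separate cultures, so each p-value reflects the spread among these arrays alone, and that spread may be technical.

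TGFb binds a pair of receptor kinases on the cell surface, which phosphorylate the receptor Smads Smad2 and Smad3. These join Smad4, enter the nucleus and raise or lower transcription with partner factors, and among their first targets are genes whose products shut the pathway off, such as the inhibitory Smads. The related BMP branch uses Smad1, Smad5 and Smad9 and is known for inducing the Id genes, which block the basic helix-loop-helix factors of neurogenesis. In the developing cortex TGFb is known to limit the proliferation of progenitors and to act on neuronal differentiation.

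All levels below are log2 signals relative to the 75th percentile of the same array, so that 0 is the signal of a probe at that percentile. Changes are TGFb minus vehicle on the log2 scale with the standard error (SE) of a limma fit, and adjusted p-values are from limma with Benjamini-Hochberg adjustment over all 24140 genes tested. A gene is called at an adjusted p under 0.05. The 75th percentile of the processed signal was 3505 to 4297 on the 6 control arrays, 74.9% to 78.4% of probes exceeded background by the scanner's criterion, and 0 spots were saturated. Arrays of a group correlated with r of 0.994 to 0.998 across genes, which are not independent replicates. The median SE of a change was 0.10. The number of arrays, 3 per group, limits the precision.

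Markers of the cells' label were detected. All 15 neural stem cell markers on the list were well above background on all 6 control arrays. That criterion does not tell cell types apart. Of the markers tested, it was also met by 9 of 9 for astrocytes and 22 of 23 for neurogenic factors and neurons. The same held for 9 of 10 of the oligodendrocyte lineage and 6 of 7 for microglia and macrophages. Nestin (Nes), an intermediate filament of neural progenitors, was at 5.27, 5.35 and 5.39 with vehicle and 5.41, 5.34 and 5.10 with TGFb. Fabp7, the fatty acid binding protein of radial glia, was at 6.79, 6.66 and 6.64 with vehicle and 6.77, 6.80 and 6.58 with TGFb. The arrays of the groups overlapped for both genes, with changes of -0.05 ± 0.08 (adjusted p = 0.884) and 0.02 ± 0.08 (adjusted p = 0.961). Of the 15 markers 3 rose, namely Cdh2 (0.26), Sox9 (0.21) and Sox1 (0.20), and 2 fell, Sox2 (-0.15) and Sox3 (-0.36). These counts depend on single arrays: with arrays centred on the median 0 of the 15 rose and 1 fell, and leaving out any one control array except the third of TGFb left 0 or 1 rises and 0 or 1 falls. The summed signal of the list, in units of the array's 75th percentile, was 300 to 321 with vehicle and 285 to 313 with TGFb. In a bulk sample, fewer cells of a type and less RNA per cell cannot be told apart.

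TGFb changed 2451 genes, 10.2% of those tested, of which 1311 rose (5.43%) and 1140 fell (4.72%). Rises reached much larger sizes than falls. At least 2-fold changes were called for 326 genes that rose (1.35%) and 110 that fell (0.456%), at least 4-fold changes for 87 and 12, and at least 8-fold changes for 29 and 0. The median change of the genes called was 0.56 for rises and -0.42 for falls, and that of all genes tested was -0.01. In all 436 genes changed at least 2-fold the 3 TGFb arrays lay entirely on one side of the 3 vehicle arrays, as they did in 22.1% of all genes tested. Slide 1 carried only vehicle arrays and slide 4 only TGFb arrays, so treatment and slide were partly confounded. The main fit has no term for slide. Slides 2 and 3 each carried a vehicle and a TGFb control array. All 436 genes changed in the fitted direction within both slides, which the lack of overlap already implies. With slide as a block in the fit, 433 of the 436 were still called in the same direction. When the background was instead corrected with normexp, 185 of the 326 rises and 46 of the 110 falls were still at least 2-fold, and 387 of the 436 genes were still called in the same direction.

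**Figure D1:**
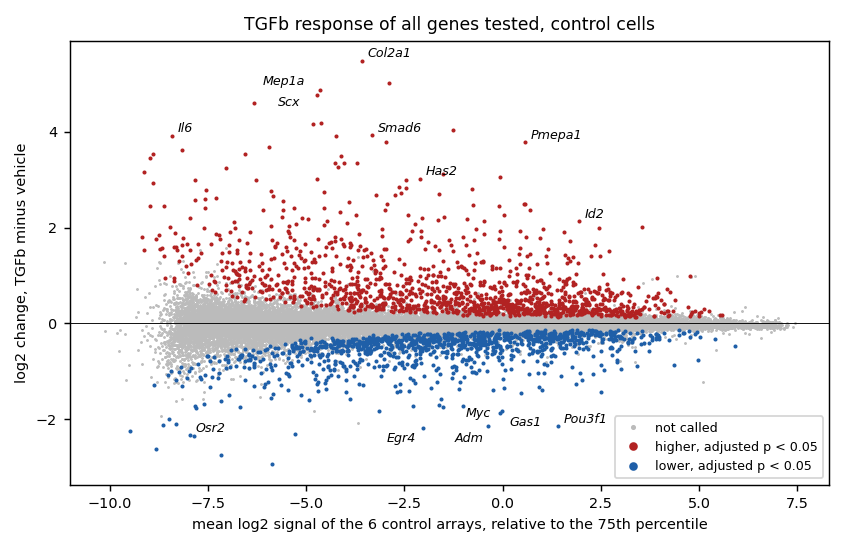
Log2 change with TGFb in control cells (y axis) against the mean log2 level over the 6 control arrays (x axis) for the 24140 genes tested, coloured by the limma call at an adjusted p under 0.05, with some of the named genes labelled. The 1311 red points reach beyond 5 on the y axis, while no blue point of the 1140 lies below -3.

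The first of the named genes that rose is Col2a1, the fibrillar collagen of cartilage, which was at -6.45, -6.40 and -6.13 with vehicle and -0.71, -0.95 and -0.89 with TGFb. Its change was 5.47 ± 0.10, or 44.5-fold (adjusted p = 5.88e-11), and its probe maps to mm9 chromosome 15, from 97806071 to 97806130. No vehicle array came within 5 log2 units of a TGFb array. Scx (scleraxis), a transcription factor of tendon progenitors, went from -7.20, -7.17 and -6.93 to -2.27, -2.21 and -2.55, a rise of 4.76 ± 0.16 (adjusted p = 4.23e-09). The groups did not overlap for Scx either. Both genes lay low on the vehicle arrays, and the size of their change depends on the background correction. With normexp the rises were 4.02 for Col2a1 and 3.00 for Scx, and both stayed called.

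Further large rises were those of Mep1a, a subunit of the metalloprotease meprin (4.86 ± 0.11), and Adcy7, an adenylate cyclase that makes cyclic AMP (4.15 ± 0.15). Lrrc75b, a leucine-rich repeat gene, was at -3.11, -3.32 and -3.39 with vehicle and 0.83, 0.77 and 0.66 with TGFb, a rise of 4.03 ± 0.08, and normexp left it at 3.83. The 3 TGFb arrays all lay above the 75th percentile and the 3 vehicle arrays far below it. Acox2, a peroxisomal oxidase of bile acid and branched fatty acid metabolism, rose by 3.90 ± 0.13, and Nrip3 by 3.79 ± 0.08. Myo1d, an unconventional myosin, rose by 3.49 ± 0.18, the histamine receptor gene Hrh3 by 3.34 ± 0.13 and the secreted protein gene Scube3 by 3.26 ± 0.12. Has2, a hyaluronan synthase, was at -3.66, -3.35 and -3.79 with vehicle and -0.56, -0.68 and -0.52 with TGFb, a rise of 3.01 ± 0.11. Adamtsl2, a secreted protein that binds the matrix and latent TGFb complexes, rose by 3.01 ± 0.17. All of these passed at an adjusted p of 2.56e-07 or lower.

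**Figure D2:**
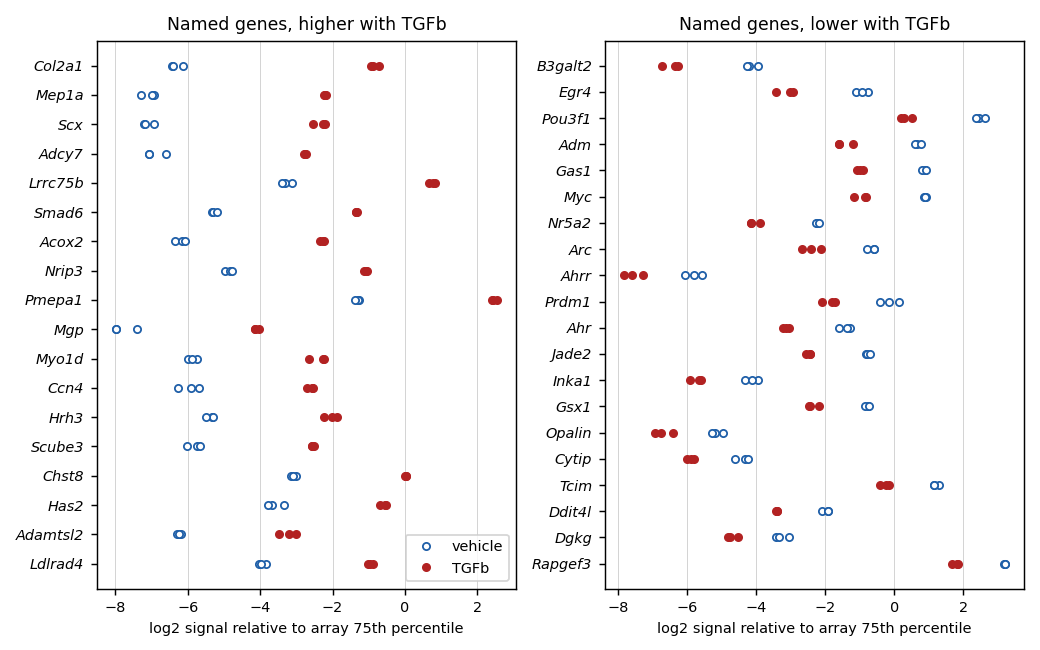
Log2 level on each of the 3 vehicle arrays (open blue) and 3 TGFb arrays (filled red) of control cells for 18 named genes that rose and 20 that fell, on an x axis relative to each array's 75th percentile. In each of the 38 rows the colours do not overlap, and the vehicle levels of the genes that rose reach down to -7.99 for Mgp.

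Some genes passed from below background to a measured level, and for these a bound replaces the fold. Foxf2, a forkhead factor of mesenchyme, stayed below the background criterion on all 3 vehicle arrays and rose at least 8.62-fold, from -8.75, -8.70 and -8.56 to -5.54, -5.38 and -5.35 (adjusted p = 9.25e-06). The bound divides the TGFb mean by a vehicle floor, which on each array is the probe's own signal or, where that is higher, the weakest signal that any probe well above background had there. Mlph, a melanosome transport protein, rose at least 5.77-fold, the cytokine gene Il6 at least 4.21-fold and the transporter gene Abcc2 at least 3.19-fold. With normexp all 8 named rises of this kind stayed called, but at smaller sizes, such as 0.93 for Foxf2 and 0.74 for Il6 on the log2 scale. Of the 326 rises of at least 2-fold, 27 were not well above background on any vehicle array.

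Among the genes that fell were several transcription factors and activity-regulated genes. Egr4, an immediate early gene, was at -0.77, -1.11 and -0.93 with vehicle and -3.41, -2.93 and -3.01 with TGFb, a change of -2.18 ± 0.14 (adjusted p = 1.14e-06). Pou3f1, a POU domain factor of neural progenitors and Schwann cells, went from 2.46, 2.37 and 2.62 to 0.20, 0.53 and 0.29, a change of -2.15 ± 0.10 (adjusted p = 5.8e-08). Every vehicle array of both genes lay above every TGFb array. Myc, a growth-promoting transcription factor long known to be repressed by TGFb in epithelial cells, was at 0.93, 0.86 and 0.88 with vehicle and -1.16, -0.82 and -0.84 with TGFb. It fell by 1.83 ± 0.09, or 3.56-fold (adjusted p = 9.78e-08), with its probe on chromosome 15 from 61821417 to 61821476 (mm9).

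Adm, the gene of the vasodilator peptide adrenomedullin, fell by 2.14 ± 0.14, and the galactosyltransferase gene B3galt2 fell by 2.31 ± 0.15. Ahr, the aryl hydrocarbon receptor, and Ahrr, which encodes its repressor, both fell, by 1.72 ± 0.08 and 1.75 ± 0.17. Prdm1, a transcriptional repressor, fell by 1.72 ± 0.14, the nuclear receptor gene Nr5a2 by 1.82 ± 0.10 and Jade2, a subunit of a histone acetyltransferase complex, by 1.71 ± 0.07. Gsx1, a homeobox factor of ventral forebrain progenitors, was at -0.77, -0.84 and -0.73 with vehicle and -2.43, -2.19 and -2.47 with TGFb, a change of -1.59 ± 0.09. Rapgef3, an exchange factor switched on by cyclic AMP, was bright on every array and fell by 1.42 ± 0.06, from 3.18, 3.21 and 3.22 to 1.83, 1.86 and 1.66. The 20 named falls passed at an adjusted p of 4.31e-05 or lower and were called with normexp as well. Falls to below background were Dleu7, at least 3.23-fold lower, and the odd-skipped factor gene Osr2, at least 3.05-fold lower. Of the 8 named falls of this kind, Dleu7 alone stayed called with normexp, and Osr2 did not pass (adjusted p = 0.069).

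Most of the pathway's own brakes rose. Of 10 genes of inhibitory Smads and signalling feedback tested, 7 rose and 0 fell, with a median change of 1.16 against 5.43% rising and a median of -0.01 over all genes tested. Every list count below is to be read beside the shares over all genes, 5.43% rising and 4.72% falling. Smad6, which blocks BMP and TGFb receptor signalling, was at -5.32, -5.32 and -5.19 with vehicle and -1.36, -1.34 and -1.36 with TGFb, a rise of 3.92 ± 0.11, or 15.2-fold (adjusted p = 9.87e-10). Smad7, the inhibitory Smad that recruits ubiquitin ligases to the TGFb receptor, was at -3.68, -3.92 and -4.02 with vehicle and -1.34, -1.07 and -0.72 with TGFb, a rise of 2.83 ± 0.18. No vehicle array reached a TGFb array for either gene. Pmepa1, a membrane protein that keeps receptor Smads from the receptor, rose from -1.28, -1.30 and -1.38 to 2.55, 2.42 and 2.41, a change of 3.78 ± 0.05, and its 2 probes gave changes of 3.78 and 3.74. Ldlrad4, a relative of Pmepa1 with the same action, rose by 3.00 ± 0.13. The nuclear repressors of Smad target genes Skil and Tgif1 rose by 1.78 ± 0.11 and 0.55 ± 0.05, and the ubiquitin ligase gene Smurf2 rose by 0.38 ± 0.06. Ski, Smurf1 and Tgif2 had changes of 0.13, 0.12 and 0.15 that did not pass the test, and the TGFb arrays of Ski scattered between -5.43 and -3.52.

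The signal transducers themselves gave 2 calls, of which that of Smad3 was fragile. Of the 6 genes of receptor Smads and Smad4, Smad3 rose by 0.24 ± 0.05, from 1.99, 1.96 and 1.95 to 2.12, 2.23 and 2.28 (adjusted p = 0.0137). Its call was lost without the third vehicle array (adjusted p = 0.0587), without the second (0.0542) or the third TGFb array (0.0587), with median centring (0.113) and with the mean of its probes (0.16, adjusted p = 0.209). Smad2, Smad4, Smad5 and Smad1 had changes between 0.02 and 0.20 that did not pass. Smad9, a receptor Smad of the BMP branch, rose by 1.18 ± 0.09, from -5.55, -5.50 and -5.61 to -4.41, -4.34 and -4.36 (adjusted p = 5.88e-06).

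The receptor genes split in direction, with 4 of 12 higher, 4 lower and a median change of 0.05. Falls numbered 3 with median centring and without any one control array except the third of TGFb. Rises numbered 3 with normexp, with median centring and without the first vehicle, the first TGFb or the second TGFb array. Tgfbr2, the type II receptor that binds TGFb first, was at 1.39, 1.43 and 1.56 with vehicle and 0.63, 0.73 and 0.50 with TGFb, a fall of 0.84 ± 0.06 (adjusted p = 3.19e-06). Its partner Tgfbr1 had a change of 0.24 ± 0.11 (adjusted p = 0.285), with overlapping arrays. Bmpr1b, a type I BMP receptor, fell by 0.85 ± 0.07, the activin receptor gene Acvr2b by 0.51 ± 0.11 and the co-receptor gene Tgfbr3 by 0.49 ± 0.12. On the other side, the type I receptor genes Acvr1 and Acvr1b rose by 0.64 ± 0.04 and 0.42 ± 0.05, Bmpr2 rose by 0.33 ± 0.08 and endoglin (Eng), a co-receptor best known from endothelium, rose by 1.04 ± 0.17. Eng was dim, at -5.52, -4.84 and -4.96 with vehicle and -3.84, -4.11 and -4.24 with TGFb, and limma called 0 of the 8 endothelial and pericyte markers tested in either direction (0 at an unadjusted p under 0.05). The summed signal of those markers was 0.757 to 0.886 with vehicle and 0.721 to 0.891 with TGFb, in units of the 75th percentile.

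Among 25 genes of TGFb family ligands and their antagonists, 10 rose and 2 fell (median 0.28). Follistatin (Fst), which binds and neutralises activins, had the largest change on the list and rose from -2.96, -2.93 and -3.02 to -0.32, -0.25 and -0.25, a change of 2.69 ± 0.06 (adjusted p = 2.43e-10). The related Fstl3 rose by 1.58 ± 0.11, and the BMP antagonist gene noggin (Nog) by 1.09 ± 0.22, with vehicle arrays that spread from -5.38 to -4.45. Inhba, which encodes a subunit of activin A, fell by 0.92 ± 0.12, and Gdf11, a relative of myostatin that acts on progenitors, by 0.61 ± 0.12. The ligand genes of TGFb itself differed. Tgfb3 was at -0.09, -0.05 and -0.08 with vehicle and 0.94, 0.85 and 0.66 with TGFb, a rise of 0.89 ± 0.08 (adjusted p = 1.39e-05). Tgfb1 and Tgfb2 had changes of 0.35 ± 0.18 and -0.19 ± 0.08, neither of which passed the test. Bmp6 rose by 1.05 ± 0.20 from levels near -7.3, and normexp gave 0.39.

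**Figure D3:**
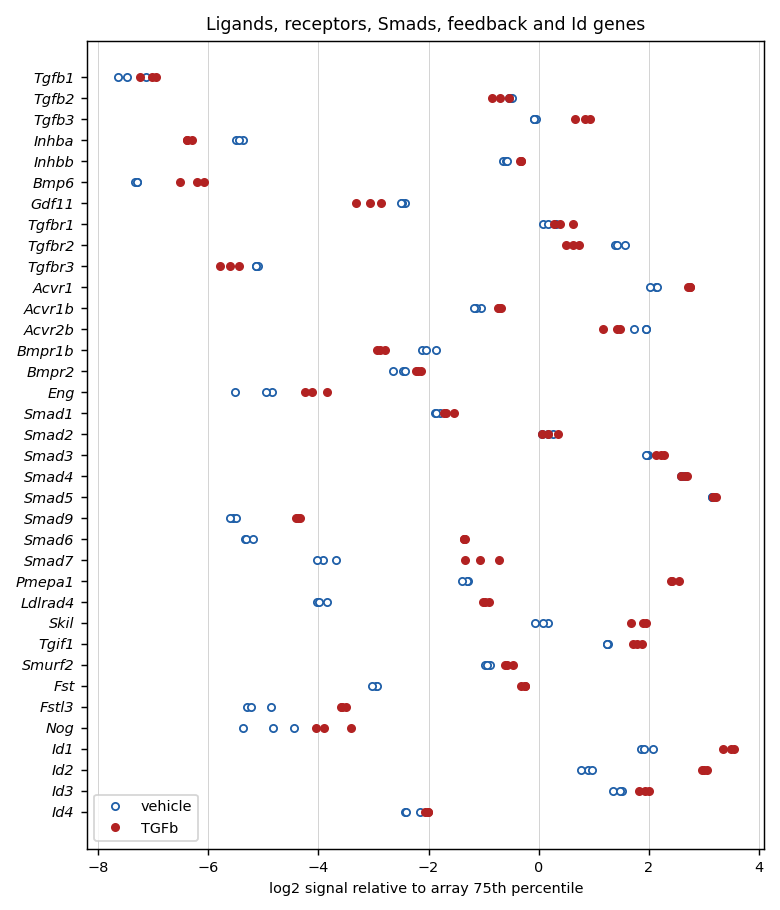
Log2 level on each vehicle array (open blue) and TGFb array (filled red) of control cells for 36 ligands, receptors, Smads, feedback, antagonist and Id genes, on an x axis relative to each array's 75th percentile. Smad6, Smad7, Pmepa1, Ldlrad4, Skil, Fst, Id1 and Id2 show the widest gaps, while Smad2, Smad4 and Smad5 overlap.

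Id genes and other BMP targets rose as well: 7 of 11 rose and 0 fell, with a median change of 0.55. The 7 include Smad6, already counted among the inhibitory Smads, so the lists overlap. Id2 was at 0.91, 0.77 and 0.97 with vehicle and 2.97, 3.06 and 3.00 with TGFb, a rise of 2.13 ± 0.05, or 4.38-fold (adjusted p = 5.91e-10). Id1 rose from 2.08, 1.85 and 1.91 to 3.35, 3.49 and 3.54, a change of 1.51 ± 0.08 (adjusted p = 1.16e-07). Neither gene's groups overlapped, and both sat well above background throughout. Id3 rose by 0.47 ± 0.08 (adjusted p = 0.00268) and Id4 by 0.30 ± 0.08 (adjusted p = 0.0266), so all 4 Id genes were called in the main fit. The call of Id4 was lost with normexp (0.27, adjusted p = 0.087) and with arrays centred on the median (0.31, adjusted p = 0.131). On the whole list 6 genes rose with normexp, with median centring and without any one control array except the second of vehicle. The helix-loop-helix gene Atoh8 rose by 1.43 ± 0.12 and Hey1, which BMP and Notch signalling both induce, by 1.04 ± 0.05. Msx1, Msx2, Dlx5 and Runx2 had changes of 0.06, 0.17, 0.30 and 0.55 that did not pass.

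Promoter windows were available for 203 of the 326 genes that rose at least 2-fold and 56 of the 110 that fell, and for 13600 of the genes tested, from RefSeq (GRCm38.p6, 250 bases before to 50 after the start). Both strands were searched for CAGAC, the core of the Smad binding element, and GGCGCC, a motif bound by Smads of the BMP branch. CAGAC occurred in 56.7% of the windows of rises, 42.9% of those of falls and 48.3% of all, and GGCGCC in 15.8%, 16.1% and 18.8%. The AP-1 site TGAGTCA occurred in 6.40%, 1.79% and 3.85%, the letters GTGGGAA of the RBPJ site in 6.40%, 8.93% and 6.35%, and the E-box CANNTG in 69.5%, 80.4% and 66.1%. The ratio of observed to expected CpG had a median of 0.573 in rises, 0.551 in falls and 0.701 over all windows. These shares describe letters in a window and were not tested.

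The following promoter stretches are shown for inhibitory Smad, Id, CCN and Notch feedback genes that rose and for Gas1, which fell. Each holds the 250 bases before the annotated start and the first 10 transcribed bases, 5′ to 3′ on the gene's strand, and capitals mark CAGAC or GTCTG, its reverse complement, GGCGCC and GTCTAGAC.
Smad6: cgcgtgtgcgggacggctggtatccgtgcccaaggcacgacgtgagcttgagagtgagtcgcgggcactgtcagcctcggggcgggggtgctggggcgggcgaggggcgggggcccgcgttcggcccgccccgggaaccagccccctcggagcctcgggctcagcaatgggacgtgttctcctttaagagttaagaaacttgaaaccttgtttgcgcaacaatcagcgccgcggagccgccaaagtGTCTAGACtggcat
Id2: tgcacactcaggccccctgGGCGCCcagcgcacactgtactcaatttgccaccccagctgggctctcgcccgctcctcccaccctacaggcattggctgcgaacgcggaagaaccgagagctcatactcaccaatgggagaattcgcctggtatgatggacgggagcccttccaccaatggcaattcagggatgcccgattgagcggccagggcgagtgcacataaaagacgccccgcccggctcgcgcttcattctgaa
Id3: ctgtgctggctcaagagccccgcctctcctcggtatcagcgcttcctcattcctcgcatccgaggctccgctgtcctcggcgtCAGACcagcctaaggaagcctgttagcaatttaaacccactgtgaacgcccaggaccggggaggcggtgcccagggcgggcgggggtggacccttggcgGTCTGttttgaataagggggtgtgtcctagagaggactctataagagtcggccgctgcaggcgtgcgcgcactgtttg
Ccn1: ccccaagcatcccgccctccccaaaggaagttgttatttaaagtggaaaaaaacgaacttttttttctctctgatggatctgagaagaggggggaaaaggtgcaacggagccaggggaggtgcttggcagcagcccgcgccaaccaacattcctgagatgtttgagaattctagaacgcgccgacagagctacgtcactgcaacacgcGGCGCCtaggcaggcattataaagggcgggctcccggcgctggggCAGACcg
Nrarp: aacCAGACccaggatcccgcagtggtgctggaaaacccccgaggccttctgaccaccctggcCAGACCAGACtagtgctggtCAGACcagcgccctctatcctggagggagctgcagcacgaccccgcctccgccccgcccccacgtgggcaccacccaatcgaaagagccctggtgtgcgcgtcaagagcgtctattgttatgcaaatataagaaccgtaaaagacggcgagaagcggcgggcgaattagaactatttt
Gas1: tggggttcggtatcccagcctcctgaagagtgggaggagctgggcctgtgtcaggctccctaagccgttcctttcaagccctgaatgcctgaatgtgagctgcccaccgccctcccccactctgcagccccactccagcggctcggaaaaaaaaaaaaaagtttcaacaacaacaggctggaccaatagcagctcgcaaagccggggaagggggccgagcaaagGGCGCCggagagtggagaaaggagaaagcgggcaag

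The stretches lie at chr9:64022050-64022309 on the minus strand for Smad6, chr12:25096083-25096342 on the minus strand for Id2 and chr4:136143572-136143831 on the plus strand for Id3. Those of Ccn1, Nrarp and Gas1 lie at chr3:145649976-145650235 on the minus strand, chr2:25180508-25180767 on the plus strand and chr13:60177526-60177785 on the minus strand (all GRCm38.p6). The 6 genes were chosen after their matches were seen. The Smad6 stretch holds GTCTAGAC, an inverted repeat of the letters GTCT, from 4 bases before the start. That motif was added to the search after it was seen there, and it occurred in 31 of the 13600 windows, in 3 of the 203 windows of rises (Smad6, Aspg and Klhl6) and in 0 of the 56 of falls. Nrarp holds CAGAC at 4 positions, 2 of them directly adjoining, and Id3 at 2. Id2 holds GGCGCC from 231 bases before its start, and Ccn1 from 42 bases before. Gas1, which fell, also holds GGCGCC, from 26 bases before its start.

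Genes of cartilage and tendon gave some of the largest rises, but most of their list did not pass the test. Of 21 tested, 6 rose and 0 fell, with a median change of 0.03. Besides Col2a1 and Scx these were Mgp (matrix Gla protein, an inhibitor of calcification), Mkx (mohawk, a tendon factor), Col11a2 and Sox9. The count of rises was 5 with normexp, with median centring or without any one vehicle array of control cells. It was 4 without any one TGFb array of control cells, and 1 gene fell without the first. Mgp was at -7.99, -7.98 and -7.40 with vehicle and -4.03, -4.13 and -4.14 with TGFb, a rise of 3.69 ± 0.15 that normexp put at 1.54. Mkx rose by 1.39 ± 0.07, from -4.15, -4.34 and -4.24 to -2.85, -2.89 and -2.83, and Col11a2 rose by 0.80. The aggrecan gene Acan and the collagen genes Col9a1, Col9a3 and Col11a1, which accompany Col2a1 in cartilage, had changes of 0.03, -0.12, -0.12 and -0.06, and none passed.

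Of 42 genes of extracellular matrix and its enzymes, 10 rose and 3 fell (median 0.07). With normexp 7 rose and 2 fell, and 8 rose without the first or the second vehicle array or the second TGFb array. Tgfbi, named for its induction by TGFb, rose by 1.41 ± 0.09, Col1a1 of collagen I by 1.11 ± 0.11, the metalloprotease inhibitor gene Timp3 by 0.83 ± 0.12 and the gelatinase gene Mmp2 by 0.75 ± 0.12. Fibronectin (Fn1), Eln and Sparc had changes of 0.22, 0.13 and 0.03 that did not pass. Of 19 integrin genes 7 rose and 1 fell (0 without the first vehicle array or with median centring), led by Itga2, a collagen receptor subunit, at 1.19 ± 0.16, and Itgb3 at 0.78 ± 0.07. Of 6 markers of fibroblasts and meninges tested, 1 rose (Col1a1), 2 fell (Prrx1 at -0.41 and Tbx18 at -0.88), and their summed signal was 5.03 to 5.55 with vehicle and 4.36 to 5.12 with TGFb. Col3a1, Lum, Foxd1 and Twist1 on that list were not kept, since their probes were not well above background on all 3 arrays of any group.

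Of the CCN matricellular genes 3 were tested, and all 3 rose, while Ccn3 and Ccn5 were not kept. Ccn4 was at -5.70, -5.90 and -6.27 with vehicle and -2.70, -2.53 and -2.57 with TGFb, a rise of 3.35 ± 0.14. Ccn1 rose by 1.81 ± 0.13, from -0.54, 0.03 and -0.41 to 1.63, 1.42 and 1.46, and Ccn2, long known as connective tissue growth factor, by 1.63 ± 0.07, from 1.38, 1.69 and 1.53 to 3.10, 3.12 and 3.26. No array overlapped in any of the 3 genes. Of the 13 genes of the CCN and YAP list, 5 rose and 0 fell (median 0.18). The actin contractile genes, a late TGFb signature of mesenchymal cells, had 1 call in 16, the smooth muscle actin gene Acta2 at 0.88 ± 0.08. That is 6.25% rising, near the 5.43% over all genes. Among 10 mesenchymal transition repressors and cadherins, Twist2 rose by 1.17 ± 0.28, Cdh6 by 0.65 ± 0.09 and Cdh2 by 0.26, and Zeb2 fell by 0.76 ± 0.06. The calls of both Twist2 and Cdh2 were lost without the first vehicle array, the first TGFb array or the second TGFb array (adjusted p of 0.0544 to 0.0849 for Twist2), and that of Twist2 also with normexp (0.37, adjusted p = 0.0984). Snai1 and Snai2 had changes of -0.77 and 0.26 that did not pass.

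**Figure D4:**
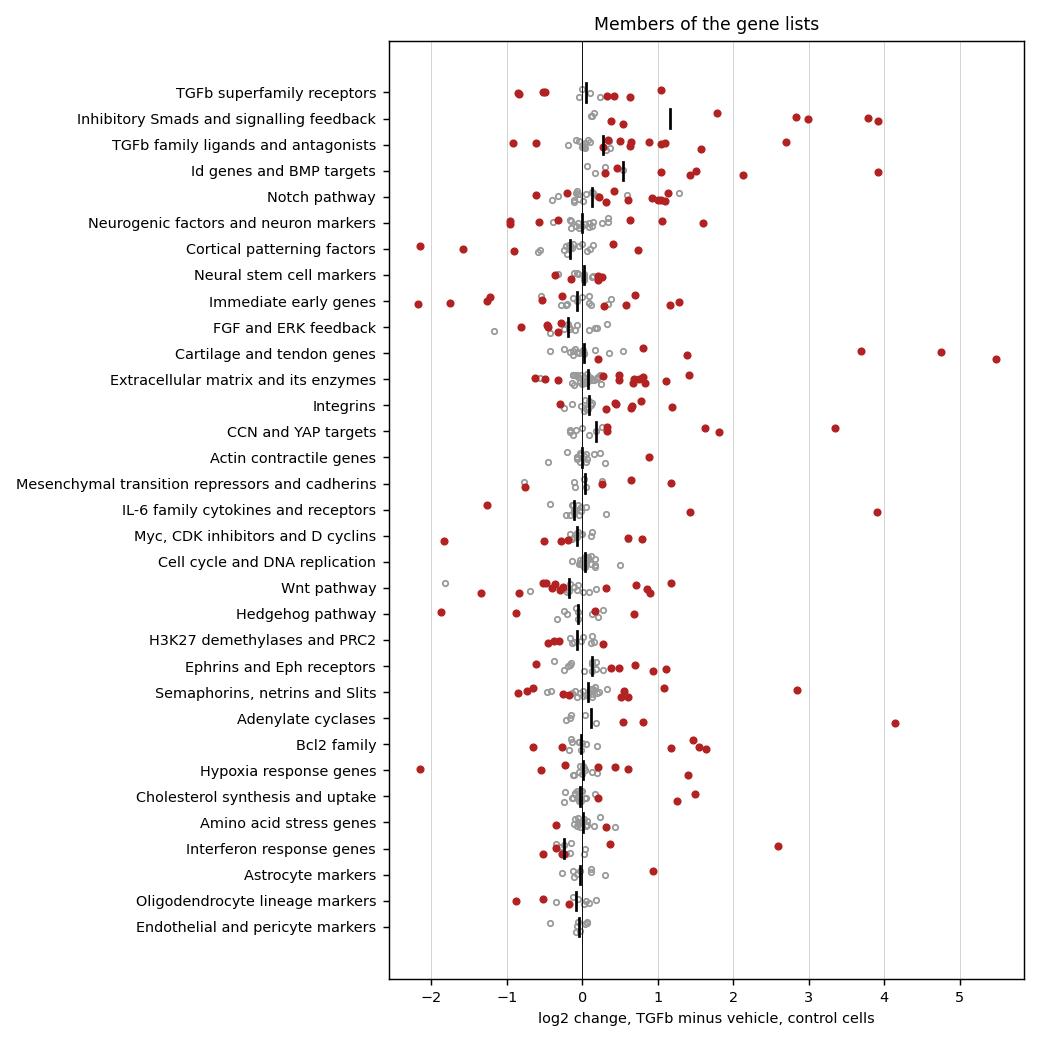
Log2 change with TGFb in control cells (x axis) for the members of 33 gene lists with at least 8 genes tested, with filled red points called at an adjusted p under 0.05, open grey points not called and a black bar at each list's median. The inhibitory Smads and feedback genes have the highest median (1.16), and most medians lie near 0.

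Notch signalling, which keeps progenitors undifferentiated through contact between neighbouring cells, had 9 of 26 genes higher and 2 lower, with a median change of 0.14. The count of falls was 1 without any one of the 6 control arrays. All 4 receptor genes rose. Notch4 was at -2.32, -2.26 and -2.23 with vehicle and -1.26, -1.25 and -1.27 with TGFb, a rise of 1.01 ± 0.07, and Notch1 went from -3.94, -4.04 and -3.95 to -3.06, -3.14 and -2.97, a rise of 0.92 ± 0.08. Notch3 rose by 0.61 ± 0.06 and Notch2 by 0.32 ± 0.06. The groups did not overlap in any of the 4, but the call of Notch2 was lost with normexp (0.31, adjusted p = 0.0697), with arrays centred on the median (adjusted p = 0.113) and with the mean of its 2 probes (0.17, adjusted p = 0.314). Of the ligand genes, Jag1 rose by 0.42 ± 0.06 and Dll1 fell by 0.61 ± 0.04. Of the Notch targets, the feedback inhibitor gene Nrarp rose by 1.14 ± 0.06, Heyl by 1.10 ± 0.20 and Hey1 by 1.04 ± 0.05, while Hes5 and Hes1 had changes of 0.13 and -0.32 that did not pass. The vehicle arrays of Hes1 spread from -2.91 to -2.13.

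Neurogenic factors and neuron markers showed no shared direction, with 3 of 23 higher, 4 lower and a median of -0.01. The proneural factor gene Neurog2 rose from -5.35, -5.19 and -5.34 to -3.61, -3.62 and -3.86, a change of 1.60 ± 0.10 (adjusted p = 5.2e-07), and Eomes (Tbr2), the factor of intermediate progenitors, by 1.06 ± 0.10. Insm1, a zinc finger factor of newborn neurons and intermediate progenitors, went the other way, from 0.69, 0.60 and 0.81 to -0.39, -0.13 and -0.25, a fall of 0.96 ± 0.08. Gadd45g fell by 0.95 ± 0.09 and Sox11 by 0.57. The summed signal of the list was 59.8 to 62.0 with vehicle and 49.7 to 54.2 with TGFb. Of 20 cortical patterning factors 2 rose and 3 fell (median -0.16; 5 fell without the first TGFb array), and the falls of Pou3f1 and Gsx1 were joined by that of the homeobox gene Emx2, a fall of 0.90 ± 0.08.

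Astrocyte markers gave 1 rise and oligodendrocyte lineage markers 3 falls. Over all genes tested, 5.43% rose and 4.72% fell. Gfap, the intermediate filament of astrocytes, was at -5.20, -4.97 and -5.28 with vehicle and -4.32, -4.28 and -4.06 with TGFb, a rise of 0.93 ± 0.11, and was the only astrocyte marker called of 9. Of 10 oligodendrocyte lineage markers 3 fell and 0 rose, namely Olig2 by 0.88 ± 0.05, Pdgfra by 0.52 and Olig1 by 0.17. The count of falls was 2 with normexp, with median centring and without any one control array except the second of vehicle. The summed signal of the 10 markers was 48.5 to 52.2 with vehicle and 39.5 to 40.3 with TGFb. Limma called 0 of 7 microglia and macrophage markers (0 at an unadjusted p under 0.05), with a summed signal of 3.29 to 4.61 and 3.17 to 3.52. Whether a shift in cell types had a part in any of the changes above was not tested.

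The activity-regulated and growth factor programs fell in places. Of 23 immediate early genes 5 rose and 6 fell. Arc, a synaptic plasticity gene, fell by 1.75 ± 0.16, Klf10 by 1.26 ± 0.12 and Klf2 by 1.22 ± 0.08, while Ier3 rose by 1.28 ± 0.08 and Maff by 1.16 ± 0.09. Klf10, known as a gene induced early by TGFb in other cells, was at 2.69, 2.29 and 2.54 with vehicle and 1.05, 1.39 and 1.29 with TGFb, so every TGFb array was lower. Fos and Jun had changes of 0.09 and 0.00 that did not pass, and Junb rose by 0.70 ± 0.15. Of 17 genes of FGF and ERK feedback, 0 rose and 5 fell (median -0.19; 1 rose without the first vehicle array and 2 without the third TGFb array, and 3 fell with median centring), led by the phosphatase gene Dusp4 at -0.81 ± 0.07, with the ETS factor gene Etv5 at -0.47 ± 0.08. Spry4 had a change of -1.17 ± 0.97 that rests on scattered arrays, from -2.61 to -0.22 with vehicle and -4.03 to -1.17 with TGFb, and did not pass (adjusted p = 0.658).

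Cell cycle genes did not pass in either direction. Limma called 0 of 24 cell cycle and replication genes (2 at an unadjusted p under 0.05), with changes between -0.14 and 0.50 and a median of 0.04. Of 17 genes of the Myc network, CDK inhibitors and D cyclins, 2 rose (Mxd1 by 0.79 ± 0.10 and Mycn by 0.60 ± 0.10) and 4 fell, of which 2 were called with normexp. Besides Myc these were the CDK inhibitor genes Cdkn2b and Cdkn1b and the cyclin gene Ccnd1, at -0.51, -0.19 and -0.28. Cdkn2b, known as a gene that TGFb induces in epithelial cells, was at -0.45, -0.62 and -0.58 with vehicle and -1.09, -1.01 and -1.07 with TGFb, and no arrays overlapped. The CDK inhibitor gene Cdkn1a had a change of -0.05 that did not pass.

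Of 24 Wnt pathway genes 8 fell and 5 rose, with a median change of -0.17. The count of falls was 4 without the third vehicle array, without the third TGFb array or with median centring, and 5 without the second vehicle or the second TGFb array. Wnt5a, a ligand of the branch without beta-catenin, was at 0.71, 0.70 and 0.70 with vehicle and -0.58, -0.75 and -0.60 with TGFb, a fall of 1.35 ± 0.07 (adjusted p = 1.89e-07). Several inhibitors of the pathway rose, namely Nkd2 by 1.17 ± 0.22, Wif1 by 0.89 ± 0.14 and Dkk3 by 0.85 ± 0.10. The feedback gene Axin2 is represented by a probe whose arrays scattered, at -2.62, -4.82 and -4.22 with vehicle and -6.66, -6.35 and -4.11 with TGFb, and its change of -1.82 ± 0.86 did not pass (adjusted p = 0.284). A dimmer second probe gave tight levels of -5.30, -5.30 and -5.36 with vehicle and -7.02, -6.89 and -7.32 with TGFb, a change of -1.75 ± 0.17 (limma adjusted p = 3.48e-05). That probe was looked at after the scatter of the first was seen. In the hedgehog pathway 2 of 13 genes rose and 2 fell, and the rise of Smo (0.17) was not called without any one of the 6 control arrays. Gas1, a hedgehog co-receptor, had the largest change, from 0.90, 0.80 and 0.93 to -1.07, -0.91 and -0.99, a fall of 1.87 ± 0.07 (adjusted p = 2.06e-08). Its probe maps to mm9 chromosome 13, from 60276399 to 60276458, its 3 probes gave changes of -1.87, -1.02 and -2.01, and the ligand gene Shh fell by 0.87 ± 0.19.

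Guidance and adhesion genes changed in both directions. Of 29 semaphorin, netrin and Slit genes 5 rose and 5 fell, and 3 fell without the first or the third vehicle array, without the third TGFb array or with median centring. Sema7a, a membrane-anchored semaphorin, rose from -3.91, -3.98 and -4.31 to -1.09, -1.33 and -1.24, a change of 2.85 ± 0.10, and Sema4b rose by 1.08, while the secreted Sema3a and Sema3e fell by 0.85 and 0.73. Of 18 ephrin and Eph receptor genes 5 rose (3 with the mean of all kept probes) and 1 fell (2 without the second TGFb array), with Epha4 at 1.11 ± 0.07, Efnb2 at 0.49 ± 0.05 and Epha2 at -0.61. Besides Adcy7, the adenylate cyclase genes Adcy8 and Adcy5 rose by 0.80 ± 0.11 and 0.54 ± 0.13, and 0 of the 8 tested fell. Only 2 adenylate cyclase genes rose with median centring and without the first vehicle, the first TGFb or the second TGFb array.

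Of 15 members of the Bcl2 family, which control apoptosis, 4 rose and 2 fell, and 1 fell without the second vehicle array, without the third TGFb array or with normexp. Bmf was at -2.01, -2.25 and -2.12 with vehicle and -0.51, -0.41 and -0.55 with TGFb, a rise of 1.64 ± 0.07. Pmaip1 (Noxa) rose by 1.54 ± 0.06, from 0.46, 0.28 and 0.43 to 1.91, 2.00 and 1.90, and Bcl2l11 (Bim) by 1.18 ± 0.10. Hrk rose by 1.47 ± 0.26 from levels near background, and normexp gave 0.37. All 4 encode promoters of cell death with a BH3 domain alone. So does Bbc3 (Puma), which fell by 0.66 ± 0.08, and Bid, another death promoter, fell by 0.27. Bcl2, Mcl1, Bax and Bak1 had changes of -0.04, -0.04, -0.01 and 0.00, and none of them passed.

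Metabolic and cytokine lists held single strong responders. Of 19 cholesterol genes 3 rose and 0 fell: the sterol exporters Abca1, by 1.25 ± 0.06, and Abcg1, by 1.49 ± 0.26, and the regulator gene Srebf1, by 0.21. Only 2 of the list rose with normexp, with median centring and without any one control array except the third of TGFb. The genes of cholesterol synthesis on the list, such as Hmgcs1 at -0.09, were not called. Pfkfb3, a driver of glycolysis, rose by 1.40 ± 0.05, from 1.77, 1.82 and 1.76 to 3.15, 3.17 and 3.22, while Adm fell. Among 17 hypoxia response genes 4 rose and 3 fell. With normexp, with median centring and without the first vehicle, the second TGFb or the third TGFb array, 3 rose and 2 fell. Of 17 genes of the IL-6 family and its receptors, Il6 and Socs2 rose, Socs2 by 1.43 ± 0.06, and the cytokine gene Lif fell by 1.26 ± 0.12. Of 15 interferon response genes 2 rose and 4 fell, but 1 fell without the first vehicle or the third TGFb array, 2 without the first TGFb array and 0 with median centring, and 1 rose without the first or the third vehicle array or the first TGFb array. Oasl2 rose by 2.59 ± 0.35 although it was well above background on only 1 vehicle array. Of 18 amino acid stress genes 1 rose and 1 fell (5.56% each), near the 5.43% and 4.72% over all genes. Kdm6b itself was at -0.84, -0.73 and -0.75 with vehicle and -0.67, -0.69 and -0.59 with TGFb, a change of 0.12 ± 0.05 (adjusted p = 0.235). Of the 12 genes of H3K27 demethylases and the Polycomb complex PRC2, 1 rose (Mtf2 at 0.28) and 3 fell (Phf19 at -0.46, Ezh1 at -0.37 and Jarid2 at -0.31). With median centring only Phf19 of these was called, and the call of Mtf2 was lost with normexp too (adjusted p = 0.12).

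Adjacent genes were compared as well. Of the protein-coding genes placed, 358 changed at least 2-fold, and of 16142 adjacent pairs of tested protein-coding genes, 15 had both members changed at least 2-fold, 13 with both higher, 1 with both lower and 1 in opposite directions. Whether this is more than unrelated positions would give was not tested. Among pairs of related genes, the connexin genes Gja3 and Gjb2 rose by 1.80 ± 0.15 and 1.13 ± 0.21, the uncoupling protein genes Ucp3 and Ucp2 by 1.49 ± 0.11 and 1.52 ± 0.12, and the nucleotide receptor genes P2ry6 and P2ry2 by 1.37 ± 0.16 and 1.41 ± 0.10. The pair in opposite directions was of related genes too, the secreted protease genes Adamts15 at -1.21 ± 0.14 and Adamts8 at 1.18 ± 0.09. These pairs were chosen after their values were seen.

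The response was then set beside that of the JMJD3 knockdown line, measured on separate arrays of the same slides. Of the 436 genes changed at least 2-fold in control cells, 434 had the same sign in knockdown cells and 392 were called there in the same direction. The test of the difference of responses called 21 of all genes (0.087%), 17 of them among the 436. Without the third vehicle array of control cells that count fell to 4, and with estimated array weights it was 65. Mgp rose by 3.69 in control cells against 1.33 with the knockdown, and the difference of 2.35 ± 0.21 (adjusted p = 0.00259) was 0.50 and not called with normexp (adjusted p = 0.333). Chst8, a sulfotransferase gene, rose by 3.11 and 1.96, a difference of 1.15 ± 0.12 (adjusted p = 0.00705). Pmepa1 rose less in control cells, by 3.78 against 4.38 (difference -0.60 ± 0.08, adjusted p = 0.0154). Gas1 had a change of -1.87 in control and -0.94 in knockdown cells (difference -0.93 ± 0.11, adjusted p = 0.0104) and Wnt5a one of -1.35 and -0.52 (difference -0.83 ± 0.10, adjusted p = 0.0143). Smad6, Id2 and Fst gave changes of 4.52, 2.12 and 2.14 in knockdown cells, and their differences from control cells did not pass (adjusted p = 0.337, 0.984 and 0.0537).

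**Figure D5:**
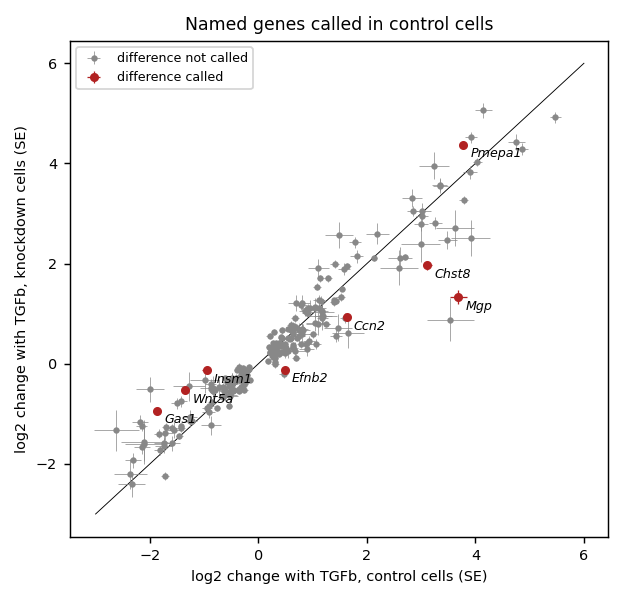
Log2 change with TGFb in knockdown cells (y axis) against that in control cells (x axis) for the named and listed genes called in control cells, with SE bars from the fit and a line where both are equal. Grey points are genes whose responses were not called different and red points the 8 that were, such as Mgp at 3.69 and 1.33.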

How the data were processed

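Each of the 12 samples was measured on a 1-colour Agilent array. Amplification started from 500 ng of total RNA and an oligo-dT primer, with Cy3 as the dye, per the labels' protocols. The deposited scanner files give a background-corrected intensity per spot made by Agilent Feature Extraction (version 10.7.3.1) and place the probes on mm9, per the file headers. The authors also deposited a table of log2 values, in which all columns share a median of 7.93; any further centring is not given in the sources used here.

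Control spots and outlier spots were left out, spots of a probe were averaged, and the 75th percentile of an array's log2 intensities was subtracted from them. A probe was kept (29972 of 39429) if some group had it well above background on each of its 3 arrays. Of its kept probes, the one with the highest mean stood for a gene, and 4858 of the 24140 genes had several. Accessions matched 26164 probes to a RefSeq table of GRCm38.p6, the source of the promoter windows too, and 13265 kept the file's name. For 42 genes at least 1 control array has no value because its spots were left out.

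All 12 arrays were fitted together with limma 3.58.1 in R 4.3.3 (a mean per group, eBayes with a trend, 8 residual degrees of freedom), two-sided, with Benjamini-Hochberg adjustment. On simulated data the fit missed the recovery first required of it; that requirement was then replaced by limits on the share of false calls and on bias, which it met. Named genes were up to 20 rises and 20 falls with the largest change among called genes with non-overlapping arrays well above background, up to 8 bounds each way, and members of 37 gene lists; clone and accession names were passed over. Members, lists and rules were chosen with earlier results of these data known. Part of the genes named by these rules is not reported here. Arrays sharing a slide deviated together (correlations of 0.18 to 0.58 in 12 of 12 pairs), while same-numbered control arrays, which lay on different slides, did not. Alternatives were other background correction, normalization, filters, probe rules, priors, weights, blocks, thresholds, the authors' values and each control array left out.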

Additional observations from a re-analysis of the deposited data

Results flagged for a closer look

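For 8 of the reported genes the response to TGFb differed between control and knockdown cells by the limma test of the difference. All values are control minus knockdown responses on the log2 scale. Mgp responded more in control cells, with a difference of 2.35 that was 0.50 with normexp (adjusted p = 0.333) and 0.58 with the authors' values (adjusted p = 0.122), where it was not called. The difference of Chst8 was 1.15, and it was called in all 17 alternatives. Ccn2 rose by 1.63 in control cells against 0.93 with the knockdown, and its difference of 0.69 was called in 10 of 17 alternatives. Efnb2 rose in control cells by 0.49 against -0.12 with the knockdown, and its difference of 0.60 was called in 14 of 17.

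Gas1 had a difference of -0.93 (called in 15 of 17 alternatives) and Wnt5a one of -0.83 (14 of 17). Insm1 had a change of -0.96 in control cells against -0.12 with the knockdown, and its difference of -0.83 was called in 10 of 17. Pmepa1 differed by -0.60, called in 13 of 17. Leaving out the third vehicle array of control cells took the calls of 6 of the 8, all but Mgp and Chst8. Centring arrays on the median took the same 6.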

How the results depend on the processing

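The count of 2451 genes called was 1515 with arrays centred on the median, 1570 at an adjusted p under 0.01, 964 with a 1.5-fold minimum and 436 with a 2-fold minimum. Leaving out each control array in turn gave 1832 to 2193. The other alternatives gave 1689 (only the 6 control arrays) to 2944 (array weights), with 1794 for normexp. The share of calls that were higher was 53.5%, and 60.7% with median centring. The count of 21 genes with different responses was 5 with median centring, 45 with slide as a block, 65 with array weights, 4 at an adjusted p under 0.01 and 5 with a 2-fold minimum. Leaving out control arrays gave 4 (without the third vehicle array) to 27. The test needs both lines, so the 6 control arrays alone gave no value. With a replicate block the counts were 2059 and 11. Same-numbered control arrays had correlations of deviations of -0.26 to -0.05. Each such pair lay on different slides, so these values cannot tell whether replicate numbers pair the samples.

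Over the named genes and their alternatives, 3807 of 4190 values kept direction and call, 381 lost the call, 39 of them with normexp and 45 with median centring, and 1 gained it (Axin2, second probe). Smo reversed, at -0.01 with the mean of its kept probes against 0.17. List medians moved beyond the spread between arrays in 30 of 666 values. Of the genes with bounds, 8 of 8 rises and 1 of 8 falls were called with normexp. Signal over background limits these genes, for which only a bound is given.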

Other observations

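For 20 genes a dimmer probe was called at least 2-fold while the brightest probe, which represents the gene in all counts, was not. Fam107a, an actin-associated protein of glia, had such a probe at -4.90, -5.29 and -5.49 with vehicle and -3.14, -3.33 and -3.22 with TGFb, a change of 2.00 ± 0.14 (limma adjusted p = 2.19e-06). Srrm3, a splicing factor of neurons, had a probe that rose by 1.90 ± 0.13, and the cell adhesion gene Mcam a probe that rose by 1.31 ± 0.10. A probe of Igf1, the insulin-like growth factor gene, rose by 1.06 ± 0.21. Of 801 genes with several kept probes and at least 1 call, 292 had all probes called in the same direction and 1 had probes called in both. Which transcripts these probes match was not analysed here.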
